A study of Mus musculus with 4 samples.

Results

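The genes described here encode the mouse liver's main conjugating enzymes: the cytosolic glutathione S-transferases (GSTs), the UDP-glucuronosyltransferases (UGTs) and the sulfotransferases (SULTs). They were taken by symbol, as the Gsta, Gstm, Gstp, Gstt, Gstk, Gsto and Gstz genes, the Ugt1, Ugt2 and Ugt3 genes and the Sult genes, pseudogenes left out, with at least 20 unique molecular identifiers (UMIs, each standing for 1 captured RNA molecule) summed over the series. Of 64 matching genes among 32285 mouse genes, 50 reached this number: 21 GSTs, 19 UGTs and 10 SULTs. Sult1e1 fell just outside with 19 UMIs, as did Gstt4 with 9, while Sult2a2 and Sult2b1 were just inside with 30 and 35.

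Conjugation makes drugs, steroids, bilirubin and reactive electrophiles soluble by attaching a polar group. GSTs attach glutathione, most UGTs attach glucuronic acid in the endoplasmic reticulum, and SULTs attach sulfate in the cytosol. Transporters then export the product into bile or blood. Liver hepatocytes do not share this work evenly: those around the central vein (pericentral) and those around the portal tract (periportal) differ in enzyme content, and nuclear receptors such as CAR (Nr1i3), the aryl hydrocarbon receptor (Ahr) and the oxidant-sensing factor NRF2 (Nfe2l2) are known to regulate many of these genes.

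RNA in single liver nuclei was counted in 4 libraries from male Bl/6 mice, 1 library for each group. Mice were fed a chow diet (CD) or a low-protein diet (LPD) from 1 week before a hydrodynamic tail vein injection until 2 weeks after it. The CD oncogene and LPD oncogene labels name livers given human c-MET and an N-terminally truncated human β-catenin from constitutively active plasmids, together with the Sleeping Beauty transposase that inserts them into the genome of the hepatocytes it reaches. The CD control and LPD control labels name livers given the vector without the oncogenes. Such an injection reaches scattered hepatocytes, so an oncogene liver also holds hepatocytes without a transgene. The number of mice behind a library is not given in the sources used here, and with 1 library a group there is no replicate, so no difference below carries a test, and every interval covers counting error only.

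The libraries held 9826 to 13014 barcodes, and 42877 nuclei passed the filters, with median depths of 3807 and 3294 UMIs on CD and of 1962 and 1762 on LPD. Mitochondrial RNA took a median of 2.42% and 0.983% of a nucleus' UMIs on CD but 0.09997% and 0.127% on LPD, so depth and carried-over RNA cannot be told apart from diet. Any pair of libraries shared 18 to 40 barcodes. Hepatocyte nuclei numbered 7399 for CD control, 9578 for CD oncogene, 7770 for LPD control and 6836 for LPD oncogene, and where 4 values are listed without names below they follow this library order. The hepatocytes of the libraries sat in different clusters. The largest, led by Etnppl and Sds, held 9, 4663, 3043 and 0 nuclei in this order, and the one led by Egr1 and Fgfr1 held 2777, 13, 8 and 1736, so the split ran between the labels on each diet and not between the diets. A cluster led by Nrg1, Mt2, Gstp2 and Fgf21 had 2143 of its 2829 nuclei from LPD oncogene. The part of this split in the results below was not tested. Xist was between 0.212 and 0.816 CPM (counts per 1e6 UMIs of mouse genes) in these nuclei and 4 genes of the Y chromosome between 59.0 and 289 CPM, the pattern of male tissue. The human transgenes went against 1 pair of labels: 100 transgene UMIs lay in the library labelled CD control and 0 in that labelled CD oncogene, which allows up to 0.0490 CPM, beside 0 for LPD control and 6 for LPD oncogene. The study's text also gives the vector group on CD more nuclei than the oncogene group, the reverse of these libraries. The labels are used here as deposited, each library is called by its label, and each direction drawn between the CD labels carries that doubt.

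The members lie largely in clusters of similar genes. On GRCm38, 7 Gstm genes lie within chr3:107895821-108044894, 3 Gstp genes within chr19:4035407-4059569 and 8 Ugt2 genes within chr5:86889767-87424203. The 9 Ugt1a genes at chr1:88055388-88220002 share exon bases with each other, since alternative first exons are joined to common later exons, so their reads could be assigned to a gene only through the first exon and their separate values are uncertain. Counts of near-identical neighbours (Gstm, Gsta, Gstp, Ugt2b and Sult2a genes) are uncertain for the same kind of reason.

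The promoters of the 3 Gstp genes and of Gsta3 are shown because the diet comparisons of level and of lobular position below turn on these genes. Each runs from 250 bases before to 50 after the RefSeq start (GRCm38.p6), 5′ to 3′ on the gene's strand, with capitals for the antioxidant response core TGACNNNGC or the xenobiotic response core GCGTG, each searched on both strands.
Gstp1, chr19:4037863-4038162, minus strand: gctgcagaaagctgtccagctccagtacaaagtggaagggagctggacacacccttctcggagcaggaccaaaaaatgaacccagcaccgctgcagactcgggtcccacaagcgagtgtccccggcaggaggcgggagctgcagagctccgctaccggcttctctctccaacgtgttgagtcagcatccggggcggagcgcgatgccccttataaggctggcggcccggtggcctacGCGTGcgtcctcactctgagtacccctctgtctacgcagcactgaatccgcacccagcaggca
Gstp2, chr19:4042172-4042471, minus strand: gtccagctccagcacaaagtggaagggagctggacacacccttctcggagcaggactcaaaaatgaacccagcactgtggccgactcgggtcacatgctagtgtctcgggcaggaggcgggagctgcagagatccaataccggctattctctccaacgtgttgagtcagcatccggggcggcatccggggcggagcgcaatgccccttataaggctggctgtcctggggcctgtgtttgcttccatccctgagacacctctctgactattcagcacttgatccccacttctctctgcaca
Gstp3, chr19:4059398-4059697, minus strand: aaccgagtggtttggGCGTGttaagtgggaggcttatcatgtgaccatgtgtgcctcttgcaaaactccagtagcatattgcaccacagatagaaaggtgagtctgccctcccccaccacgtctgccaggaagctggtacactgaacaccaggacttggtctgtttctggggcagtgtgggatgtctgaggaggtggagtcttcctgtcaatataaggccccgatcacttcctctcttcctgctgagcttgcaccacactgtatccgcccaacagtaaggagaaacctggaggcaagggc
Gsta3, chr1:21240335-21240634, plus strand: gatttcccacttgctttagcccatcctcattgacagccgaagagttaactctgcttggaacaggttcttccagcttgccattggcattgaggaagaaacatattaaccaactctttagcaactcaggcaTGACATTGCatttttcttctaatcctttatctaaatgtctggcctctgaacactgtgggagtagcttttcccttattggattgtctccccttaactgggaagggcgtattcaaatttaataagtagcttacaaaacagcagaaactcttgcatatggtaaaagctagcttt

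The Gstp1 and Gstp2 promoters were 77.3% identical over 317 aligned columns and shared an unbroken run of 43 bases, whereas Gstp3 was 50.3% identical to Gstp1, close to the 48.3% between the unrelated Gstp1 and Gsta3. The xenobiotic core stood 13 bases before the start of Gstp1 and had no match in the Gstp2 window. The antioxidant core began 121 bases before the start of Gsta3. Among 44 members with a promoter in the table, 3 held the antioxidant core (Gsta3, Gstm5 and Gstm7) and 11 the xenobiotic core, that is 5.45% and 23.6% of 55 member promoters beside 12.4% and 32.4% of all 32851 promoters. No member promoter held the direct repeat 4 motif bound by CAR, which was in 0.0122% of all promoters.

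In hepatocyte nuclei the families together made up 0.684%, 0.593%, 0.538% and 0.445% of the UMIs in library order. The families did not move together. Summed GST RNA was 1561 and 961 CPM in the CD control and CD oncogene libraries and 2029.7 and 2092 CPM in the LPD control and LPD oncogene libraries, so both LPD libraries lay above both CD libraries. Summed UGT RNA was 2605 and 2232 CPM on CD and 1755 and 1721 CPM on LPD, the opposite order. Summed SULT RNA was 2677 and 2735 CPM on CD, 1596 in LPD control and 635 in LPD oncogene.

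A few genes set these sums. Sult2a8, a hydroxysteroid sulfotransferase known for sulfating bile acids, supplied 95.1%, 94.6%, 84.6% and 67.4% of the SULT UMIs in library order. Gsta3, an alpha-class transferase active on lipid peroxidation products and aflatoxin epoxide, supplied 41.4%, 29.9%, 57.2% and 49.4% of the GST UMIs. The diet order of the GST sum rests on it: without Gsta3, LPD control would lie below CD control. Gstz1, which acts in tyrosine breakdown as maleylacetoacetate isomerase, and Gstm1 were next in most libraries. Of the UGTs, Ugt2b5, Ugt2b36 and Ugt2b1, which conjugate steroids and drugs, gave the most UMIs, and Ugt2b36 was between 501 and 648 CPM in every library. At the other end, Sult2b1, known as a cholesterol sulfotransferase of skin, had 13 of its 35 UMIs in hepatocyte nuclei and is not described further.

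**Figure D1:**
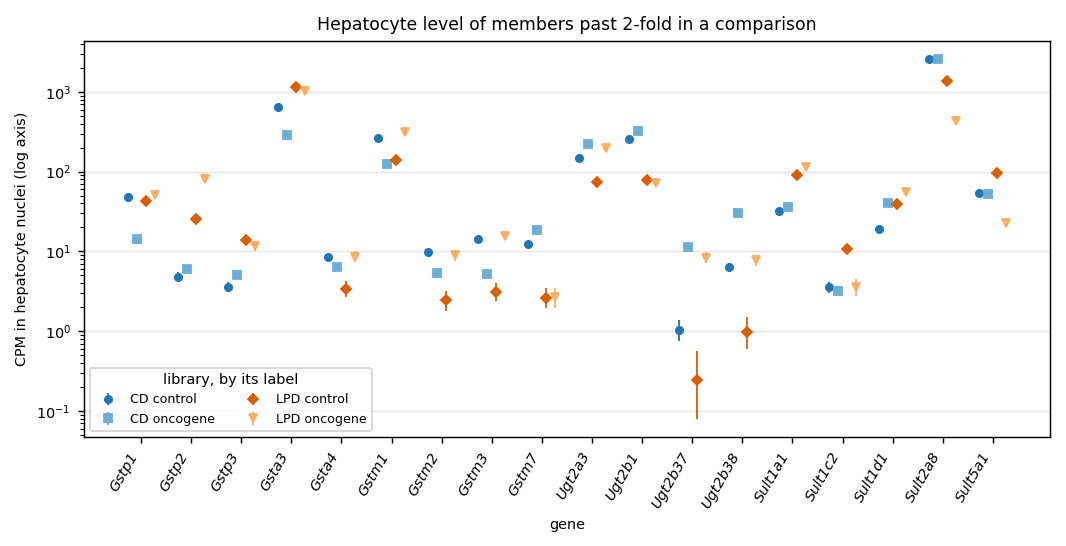
Level in hepatocyte nuclei (CPM, log axis) of 18 members that passed 2-fold in a comparison of diets, labels or lobular position, with 1 point per library and bars for the 95% Poisson interval. Gstp2, Gstp3 and Sult1a1 lie higher and Gstm7 and Ugt2b1 lower in both LPD libraries than in both CD libraries.

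The diet comparison set each LPD library against each CD library, which gives 4 pairs that share libraries, and counted a gene when its ratio was at least 2-fold in one direction in 4 of 4 pairs, on log2(CPM + 1). Genes entered with a mean of at least 5 CPM over the 4 libraries and 50 UMIs in sum. A gene low on 1 diet could thus enter through the other, as Gstp3 and Gstm7 did. Of 38 members tested, 3 were higher on LPD and 2 lower, against 3.19% and 1.83% of 10048 genes. At any size, 7 members were higher and 12 lower in 4 of 4 pairs, where 46.6% of all genes were higher and 17.7% lower. The median log2 ratio of the members was -0.38, -0.26, -0.03 and -0.08 in the pairs LPD control over CD control, LPD control over CD oncogene, LPD oncogene over CD control and LPD oncogene over CD oncogene, beside 0.16, 0.29, 0.13 and 0.26 for all genes. Fewer nuclei of a type and less RNA per nucleus cannot be told apart in such sums.

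Gstp2 differed most. It encodes a pi-class transferase, a class known for conjugating electrophiles and for marking altered hepatocyte foci in rodents. Gstp2 was at 4.79 and 5.95 CPM in the CD control and CD oncogene libraries, and at 25.4 and 80.3 CPM in the LPD control and LPD oncogene libraries. Its log2 ratios in the 4 pairs, in the order above, were 2.19, 1.93, 3.81 and 3.55, and the 2 LPD libraries also differed from each other by 1.62. Gstp3, the next gene in the cluster, was at 3.61 and 5.06 CPM on CD and at 14.0 and 11.6 CPM on LPD. Its call was lost under TMM scaling (smallest log2 ratio 0.86), with a pseudocount of 5 CPM (0.73), with equal weight of common position bins (0.94) and without nuclei holding markers of other classes (0.95). Gstp1, the neighbour on the other side, did not follow the diet: it was at 47.9, 14.4, 42.3 and 50.2 CPM, with only the CD oncogene library apart. Gstp2 UMIs as a share of Gstp1 and Gstp2 UMIs together were therefore 9.08% (95% exact binomial interval 7.98 to 10.3) in CD control, 29.2% (26.6 to 32.0) in CD oncogene, 37.5% (35.0 to 40.1) in LPD control and 61.5% (59.5 to 63.4) in LPD oncogene.

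Sult1a1, the phenol sulfotransferase that conjugates catechols, drugs and small phenols, was at 32.0 and 35.8 CPM in the CD control and CD oncogene libraries and at 91.8 and 115.7 CPM in the LPD libraries. Its log2 ratios were between 1.33 and 1.82, and the groups did not overlap. Gstt2, a theta-class transferase of small halogenated and peroxide substrates, came close, with 94.7 and 51.1 CPM on CD, 196 and 184 CPM on LPD and a smallest log2 ratio of 0.95. Gsta3 was also higher on LPD in every pair, at 646 and 287 CPM on CD against 1161 and 1033 CPM on LPD, with log2 ratios from 0.67 to 2.01. Among the first exons of the Ugt1a locus, Ugt1a9 was at 1.2 and 1.58 CPM on CD and at 5.07 and 5.84 CPM on LPD. Ugt1a10 was at 0.923 and 1.04 CPM on CD and at 7.41 and 6.75 CPM on LPD. The mean of each over the 4 libraries was below the CPM minimum. Ugt1a1, the bilirubin-conjugating form read from the same locus, went the other way, from 11.6 and 7.06 CPM on CD to 3.36 and 3.82 CPM on LPD.

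Of the genes lower on LPD, Ugt2b1, a glucuronosyltransferase of steroids and bisphenols in rodent liver, was at 259 and 320.3 CPM on CD and at 78.5 and 72.0 CPM on LPD. Its log2 ratios ran from -2.14 to -1.71. Gstm7, a mu-class transferase, was at 12.3 and 18.4 CPM on CD and at 2.63 and 2.66 CPM on LPD. Sult2a8 was lower on LPD in every pair too, with log2 ratios of -0.92 and -0.94 for LPD control and -2.57 and -2.59 for LPD oncogene, so that only the LPD oncogene library was past 2-fold. Of 14 UGTs tested, 6 were lower and 1 higher in 4 of 4 pairs at any size, and of 18 GSTs, 4 were lower and 5 higher.

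**Figure D2:**
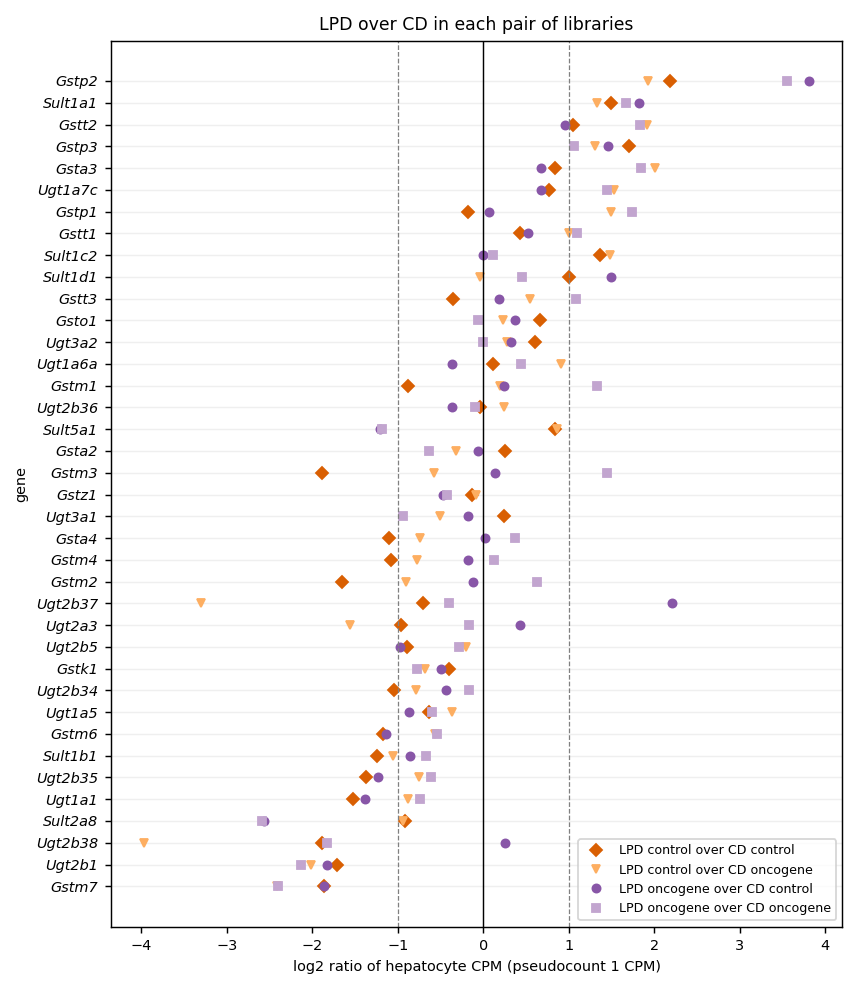
Log2 ratio of hepatocyte CPM for the 38 members tested, in each of the 4 LPD and CD pairs, ordered by the mean, with dashed lines at 2-fold. Gstp2 and Sult1a1 stand furthest right and Gstm7 and Ugt2b1 furthest left with all 4 points past a line, while Ugt2b37, Ugt2b38, Gstm3 and Sult5a1 scatter on both sides of 0.

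Among 62 genes of the same pathway, 54 were tested, 4 were higher on LPD and 1 lower, against 3.19% and 1.83% of 10048 genes. Mgst3, a microsomal glutathione transferase, was at 1.42 and 1.56 CPM on CD and at 9.06 and 8.34 CPM on LPD. Mgst3 and Cux2 passed the CPM minimum only through the LPD libraries, where they were high. Cbr1, a carbonyl reductase and NRF2 target, was at 8.65 and 8.15 CPM on CD and at 36.4 and 34.4 CPM on LPD. It was the only 1 of 5 NRF2 targets tested past 2-fold, and their median log2 ratios were -0.46, 0.08, -0.16 and 0.48. As3mt, which methylates arsenic, was at 20.8 and 30.2 CPM on CD and at 95.6 and 79.6 CPM on LPD. Cux2, a repressor known in mouse liver for its female-biased expression, was at 0.451 and 0.273 CPM on CD and at 175 and 135 CPM on LPD, with log2 ratios of 6.55 to 7.11 in these male livers. Ces2a, a carboxylesterase, was at 120.4 and 91.9 CPM on CD and at 21.2 and 20.03 CPM on LPD. The genes of glutathione synthesis and recycling (0 of 5 tested) and of sulfate and glucuronate donor supply, transporters among them (0 of 8), held none past 2-fold in 4 of 4 pairs. For so few genes, 0 lies near the shares of all genes.

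Position along the lobule was read from a score of pericentral minus periportal marker genes in each hepatocyte nucleus, none of them a member, and the nuclei of each library were divided by this score into 5 bins of equal size. Genes kept out of the score checked it: Axin2, Tbx3, Nr1i3 and Cyp2c29 were at least 2-fold higher in the pericentral bin of every library, and Asl, Aldh1b1, Etnppl and Cdh1 in the periportal bin, whereas Igfbp2 and Arg1 did not reach 2-fold in every library. The score includes Glul, which like Axin2 is a β-catenin target. The study describes oncogene-expressing hepatocytes, mostly periportal and midzonal, as reprogrammed to resemble pericentral ones. In CD control and LPD oncogene, the libraries with transgene UMIs, the pericentral bin can therefore hold such nuclei. Axin2 cannot tell them from nuclei near the central vein. The share of nuclei close to a boundary was 12.9% to 15.8% of a library. Of 38 members tested, 3 were at least 2-fold higher in the pericentral bin of every library (1.43% of 10066 genes) and 2 in the periportal bin (1.3%). At any size, 21 of the 38 were higher pericentrally in 4 of 4 libraries and 3 lower, where 21.9% of all genes were higher and 14.7% lower. The GSTs held 12 of 18 on the pericentral side and 0 on the periportal side. The median log2 ratio of the members was 0.72, 0.36, 0.55 and 0.47, and that of all genes between -0.01 and 0.08.

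Of the mu-class transferases, Gstm2 was at 1.46, 1.28, 0.713 and 3.58 CPM in the periportal bin and at 29.6, 15.4, 7.51 and 19.8 CPM in the pericentral bin, in library order. Its log2 ratios were 3.63, 2.85, 2.31 and 2.18, with every pericentral value above every periportal value. Gstm3 was at 2.82, 3.15, 1.66 and 9.09 CPM periportally and at 44.3, 10.1, 7.75 and 30.4 CPM pericentrally. Gstm1, the mu-class gene with the most UMIs, gave log2 ratios of 1.43, 0.85, 1.53 and 1.31 and so missed 2-fold in CD oncogene, and Gstm6 missed it in LPD oncogene with 0.83. These neighbouring genes thus leaned to the same side, with Gstm7 of the same cluster between -0.10 and 0.40. Without the cluster of nuclei led by Glul, Axin2, Meg3 and Rian, 4 members were past 2-fold pericentrally, so the count did not rest on that cluster, which made up 77.7%, 2.04%, 3.73% and 41.1% of the pericentral bins.

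Of the sulfotransferases, Sult2a8 was past 2-fold on the pericentral side. It was at 1470.2, 1599, 575 and 87.6 CPM in the periportal bin and at 3145, 3721, 2259 and 856 CPM in the pericentral bin, with log2 ratios of 1.10, 1.22, 1.97 and 3.27. The call was lost with 3 bins (smallest log2 ratio 0.9957) and with stricter nuclei (0.84). Sult1d1 also leaned pericentrally in every library, with log2 ratios of 0.72, 0.22, 0.43 and 0.47. The Sult2a8 gradient was steeper in both LPD libraries than in both CD libraries. In relative terms its LPD values lay furthest below its CD values at the periportal end. Sult5a1, a sulfotransferase whose substrates are poorly known, was on the other side: it was at 113, 100.1, 157 and 44.9 CPM periportally and at 14.8, 10.7, 25.1 and 2.03 CPM pericentrally, with log2 ratios from -3.92 to -2.60. Ugt2b38 was at 16.7, 50.3, 2.62 and 20.7 CPM periportally and at 0.927, 11.0, 0 and 0.761 CPM pericentrally. The 0 in LPD control stood against 11 periportal UMIs, and 3 counts there would be 0.704 CPM. Ugt2b37, which lies in the same gene cluster, showed no side, with log2 ratios between -0.67 and 0.56.

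**Figure D3:**
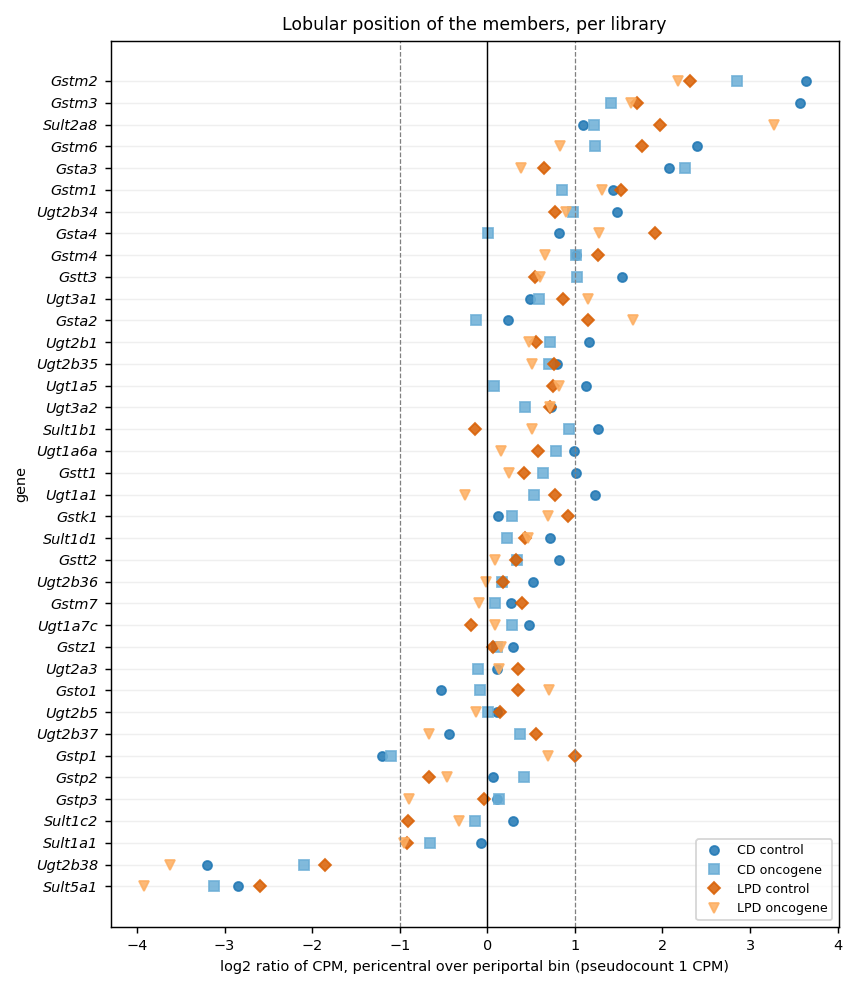
Log2 ratio of CPM in the pericentral over the periportal bin of hepatocyte nuclei for the 38 members tested, 1 point per library, with dashed lines at 2-fold. Gstm2, Gstm3 and Sult2a8 lie right and Sult5a1 and Ugt2b38 left of the lines in every library, and Gstp1 has its CD points at -1.21 and -1.09 and its LPD points at 1.00 and 0.69.

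For 2 members the lobular gradient itself differed between the diets by at least 1 on the log2 scale between the nearest libraries. By the difference of the diet means, Sult2a8 (1.47), Gsta2 (1.35) and Gsta4 (1.18) were also past 1. The limit was set after the values were seen. Gstp1 was periportal on CD and pericentral on LPD. On CD it was at 62.6 and 19.05 CPM in the periportal bin and at 26.6 and 8.39 CPM in the pericentral bin, and on LPD at 30.4 and 39.7 CPM periportally and at 61.7 and 64.6 CPM pericentrally. The log2 ratio was -1.21 (95% counting interval without pseudocount -1.45 to -1.02) in CD control, -1.09 (-1.52 to -0.85) in CD oncogene, 1.00 (0.71 to 1.34) in LPD control and 0.69 (0.40 to 1.01) in LPD oncogene. A gain on LPD of at least 1 between the nearest libraries was seen in 0.457% of 10066 genes and a loss in 0.427%.

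The Gsta3 gradient was shallower on LPD. In the periportal bin it was at 270.1 and 110 CPM on CD and at 943 and 919 CPM on LPD, while in the pericentral bin it was at 1137 and 531 CPM on CD and at 1477 and 1201 CPM on LPD. The log2 ratios were 2.07 and 2.26 on CD and 0.65 and 0.39 on LPD. The diet difference in the Gsta3 sum was thus larger periportally than pericentrally. Gsta2 and Gsta4, other alpha-class genes, leaned the other way, with log2 ratios of 0.24 and -0.13 and of 0.81 and 0.01 on CD and of 1.15 and 1.66 and of 1.91 and 1.28 on LPD. Gstp2 was flat or slightly pericentral on CD (0.06 and 0.42) and slightly periportal on LPD (-0.67 and -0.46), opposite in sign to its neighbour Gstp1 in every library. A sign that changed with diet in this way was seen for 4 of 38 members and 14.9% of all genes.

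The RNA carried over with the nuclei also ran along the lobule in a diet-dependent way. Mitochondrial RNA made up 7.56% and 3.19% of the UMIs in the periportal bins on CD and 2.65% and 1.41% in the pericentral bins, but 0.118% and 0.197% periportally and 0.475% and 0.396% pericentrally on LPD. A panel of abundant mRNAs for secreted proteins, Alb among them, had log2 ratios of -0.93, -0.55, 0.09 and -0.39. The mitochondrial share therefore reversed its slope with diet as Gstp1 did, and its part in the Gstp1 result was not tested.

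**Figure D4:**
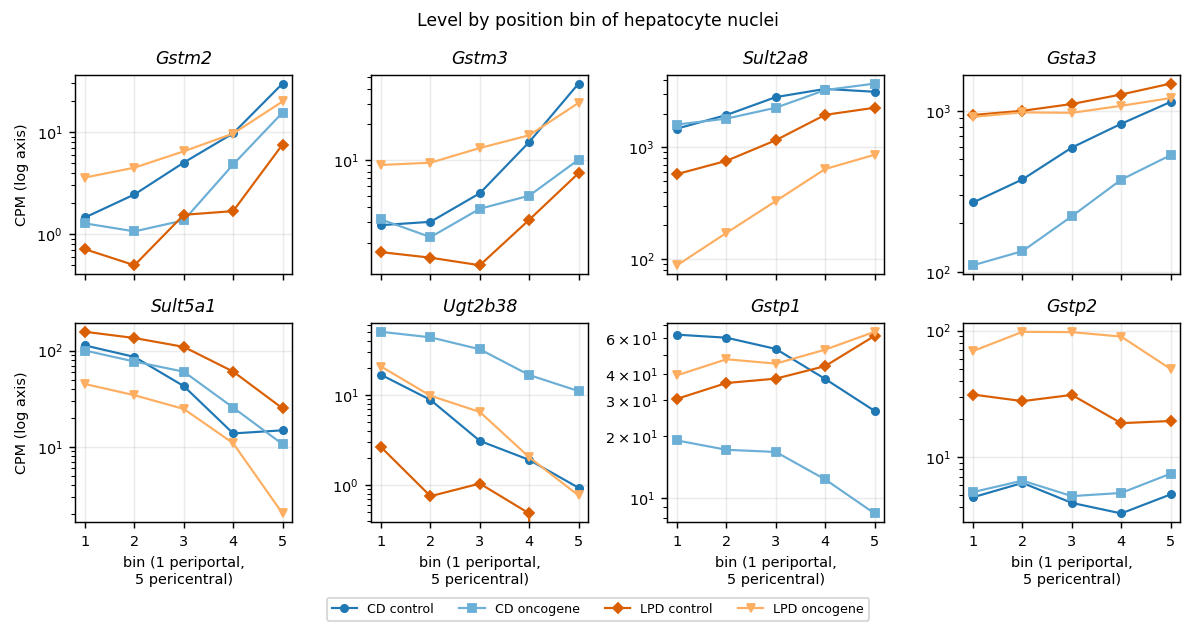
CPM (log axis) in the 5 position bins of hepatocyte nuclei, from periportal (1) to pericentral (5), with 1 line per library; a value of 0, Ugt2b38 in bin 5 of LPD control, is not drawn. Gsta3 climbs more steeply on CD than on LPD, and the Gstp1 lines of the CD and LPD libraries cross.

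Between the labels on CD, 3 members were at least 2-fold higher in CD oncogene than in CD control and 4 lower, against 2.35% and 2.99% of 9914 genes. On LPD, 6 were higher in LPD oncogene than in LPD control and 3 lower, against 1.72% and 1.09% of 10022 genes. In each case a difference is between 2 libraries only. On CD the lower genes were the transferases Gsta3 (log2 ratio -1.17), Gstm1 (-1.09), Gstm3 (-1.31) and Gstp1 (-1.67), and on LPD the higher genes included Gsta4 (1.12), Gstm1 (1.12), Gstm2 (1.54), Gstm3 (2.03) and Gstp2 (1.62). Gstm3 was at 14.3 and 5.17 CPM in CD control and CD oncogene, and at 3.12 and 15.8 CPM in LPD control and LPD oncogene. It was therefore high in the libraries with transgene UMIs, CD control and LPD oncogene, on both diets. These are also the libraries rich in the Glul and Meg3 cluster and those that share the hepatocyte cluster led by Egr1 and Fgfr1. Without the Glul and Meg3 cluster the log2 ratios on CD were -0.89 for Gsta3, -0.93 for Gstm1 and -0.42 for Gstm3, so that only Gstp1 stayed lower past 2-fold, whereas on LPD they were 1.14 for Gstm1, 1.46 for Gstm2 and 2.01 for Gstm3. With equal weight of common position bins the ratios on CD were -0.43 for Gsta3, -0.65 for Gstm1 and -0.31 for Gstm3, and on LPD Gsta4 (0.94) and Gstm1 (0.88) missed 2-fold.

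A pair of UGTs followed the labels rather than the transgene UMIs. Ugt2b37 was at 1.03 CPM in CD control and 11.3 in CD oncogene, and at 0.244 in LPD control and 8.34 in LPD oncogene. Ugt2b38 was at 6.29 and 30.0 CPM on CD and at 0.975 and 7.70 CPM on LPD in the same order. Both were higher under the oncogene label on either diet, with log2 ratios of 2.60 and 2.91 for Ugt2b37 and of 2.09 and 2.14 for Ugt2b38. However, the mean of each over the LPD libraries was under the CPM minimum, and they rest on 5 and 20 UMIs in LPD control. Sult1d1, a sulfotransferase of catecholamines, was also higher in CD oncogene (40.6 against 19.3 CPM, 1.04). Ugt2a3, which conjugates bile acids, was higher in LPD oncogene (197 against 74.6 CPM, 1.39). On LPD the lower genes were sulfotransferases: Sult2a8 at 428 against 1349.7 CPM (-1.66), Sult5a1 at 22.8 against 96.8 CPM (-2.04) and Sult1c2 at 3.56 against 10.8 CPM (-1.37).

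Of the other pathway genes, 2 were higher and 3 lower in CD oncogene than in CD control of 52 tested, against 2.35% and 2.99% of 9914 genes. The higher genes were Nnmt, which methylates nicotinamide (125 against 14.6 CPM, 3.01), and Bcl6, a repressor of the growth hormone response (1.02). The lower genes were the methyltransferase Inmt (41.3 against 237 CPM, -2.49), the carboxylesterase Ces1d (-1.08) and Nr1i3 (133.8 against 269 CPM, just past 2-fold). On LPD, 2 were higher and 2 lower of 53 tested, against 1.72% and 1.09% of 10022 genes. The higher genes were the exporter Abcc4 (12.1 against 1.41 CPM, 2.44) and Papss1, which makes the sulfate donor (1.09). The lower genes were Inmt (27.2 against 129.8 CPM, -2.21) and Bcl6 (-1.47). Inmt, like Ugt2b37 and Ugt2b38, thus lay on the same side of the label on both diets, and Bcl6 on opposite sides. Grouped by transgene UMIs instead, this reading reverses. Bcl6 was at 204 and 207 CPM in CD control and LPD oncogene, which held such UMIs, and at 416 and 574 CPM in CD oncogene and LPD control. Inmt then lay on opposite sides.

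In the library labelled CD control, 85 hepatocyte nuclei held a transgene UMI and 7314 did not, and 80 of the 85 lay in the pericentral bin. Of 34 members tested, 5 were at least 2-fold higher in the nuclei with a transgene UMI, with a counting interval that left out no difference, and 1 lower, against 2.76% and 3.07% of 10008 genes. Gstm3 was at 53.0 against 13.6 CPM and Gstm2 at 34.5 against 9.42 CPM, and Gstt3, Sult2a7 and Ugt1a5 followed with log2 ratios of 1.2, 1.55 and 1.00, each resting on 14 to 16 UMIs. Sult5a1 was lower, at 19.7 against 54.4 CPM. Within the pericentral bin none of the 34 passed 2-fold, where 0.295% and 0.986% of 9836 genes did: Gstm3 was at 53.8 against 43.5 CPM and Gstm2 at 35.9 against 29.0 CPM. Sult5a1 turned direction there, at 19.2 against 14.4 CPM (log2 ratio 0.39, counting interval -0.47 to 1.19). The score that sets this bin includes Glul, a β-catenin target, and the Glul and Meg3 cluster made up 77.7% of the bin. The study found transgene transcripts in few cells, so nuclei without a transgene UMI may also carry the transgenes. The comparison within the bin therefore cannot show that the transgenes leave these members unchanged. Nuclei with a transgene UMI were also deeper, with a median of 7369 against 5205 UMIs.

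Most member RNA lay in hepatocyte nuclei, a median of 92.1% of a member's UMIs, but so did most RNA of any kind. In library order, hepatocyte nuclei held 46579196 of 52817424, 54970695 of 61264140, 20520944 of 23258102 and 18824262 of 23160149 UMIs. In the other cell classes it had to be read against free RNA, the RNA of burst hepatocytes that enters every droplet. The secreted-protein panel reached 30.0% to 102% of its hepatocyte level in these classes, and a member was counted as above background when it was at least 3-fold above that share in 3 libraries, with 10 UMIs in each. No member was above background in endothelial, Kupffer, stellate, T or NK, B, cholangiocyte or mesothelial nuclei, where 11.5%, 12.9%, 11.1%, 7.28%, 5.26%, 1.65% and 3.35% of genes were. The rule is hard to meet for genes high in hepatocytes. In B nuclei on CD the panel was at 102% and 100.1%, so a member needed about 3-fold its own hepatocyte level. The lack of a call therefore does not show that a member is absent from these classes. The limits are wide in the rare classes, where 3 counts stood for up to 157 CPM in the 21 cholangiocyte nuclei of LPD oncogene.

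Gstm1 was also read at high levels outside hepatocytes. In endothelial nuclei it was at 128, 147, 206 and 344 CPM in library order, beside 262, 123.1, 142 and 309.9 CPM in hepatocytes, so it was above the hepatocyte level in 3 of 4 libraries. In stellate nuclei it was at 140.4, 97.9, 154 and 478 CPM. Gsta3 in endothelial nuclei was at 139, 189, 265 and 188 CPM, or 21.5%, 65.8%, 22.8% and 18.2% of its hepatocyte level. Against 4 hepatocyte genes with mostly nuclear RNA, chosen after the data were seen, which were at 7.88% to 32.5% of their hepatocyte level in these classes, Gstm1 was at least 3-fold above background in 3 libraries in endothelial nuclei and in 4 in stellate, T or NK and B nuclei. Gstt1 in stellate, Sult1a1 in endothelial and Ugt2b5 in B nuclei passed by this measure in 3 libraries. Whether Gstm1 passes thus depends on which hepatocyte RNA stands for the free RNA.

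**Figure D5:**
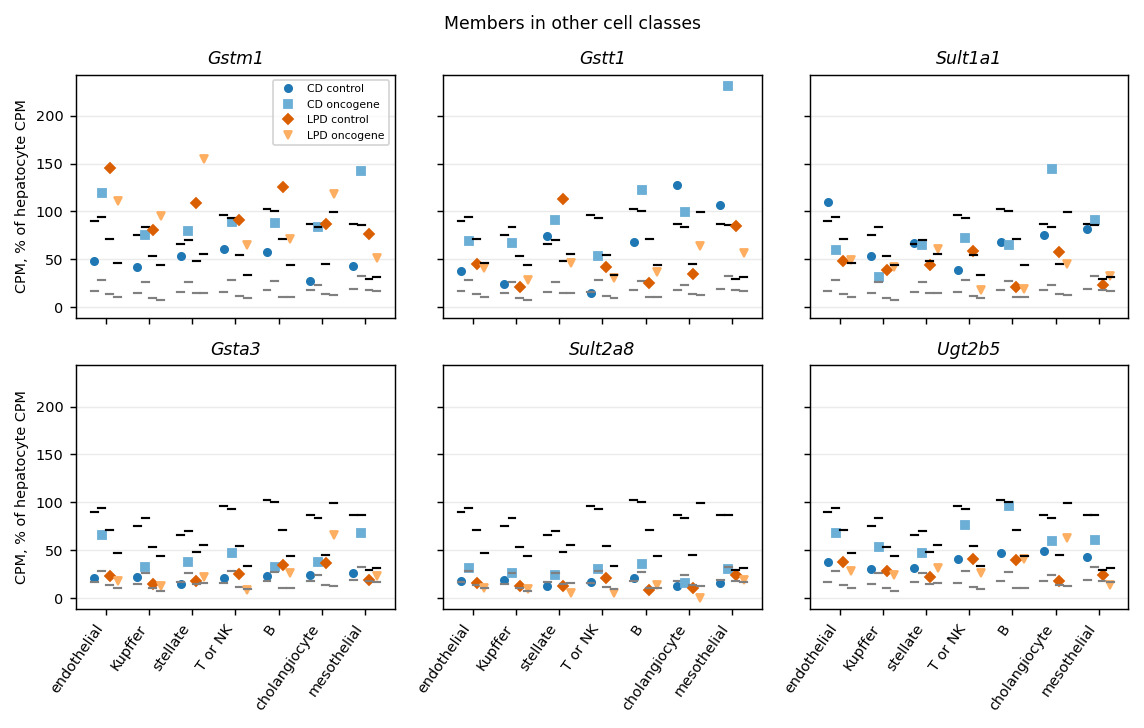
CPM of 6 members in 7 other cell classes as a percentage of their hepatocyte CPM in the same library, with short black lines for the secreted-protein panel and grey lines for the nuclear panel. Gstm1 is at or above 100% in several classes and libraries, while Gsta3 and Sult2a8 lie at or under the black lines in nearly all.

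In cholangiocyte nuclei of the library labelled LPD control, Sult1c2 had 22 UMIs in 19 of 101 nuclei (193 CPM against 10.8 in hepatocytes) and Gsto1, an omega-class transferase with reductase activity, had 15 UMIs in 13 nuclei (132 CPM against 14.4). In CD oncogene, with 105 cholangiocyte nuclei, they had 3 and 4 UMIs. In CD control and LPD oncogene, with 44 and 21 such nuclei, both were at 0, which allows up to 36.3 and 157 CPM, the first below both values of LPD control and the second between them.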

How the data were processed

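Nuclei from frozen liver were profiled with 10x Genomics 3′ v3.1 chemistry. The authors deposited a matrix of raw UMI counts (genes by barcodes) for every library, made with Cell Ranger 9.0.1 per the file headers, and the submitters' processing notes name mm10 and Seurat 5. The study's methods add the human transgenes to that genome. The treatment of intronic reads is not given in the sources used here. The deposited counts were not normalized.

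Nuclei with 200 to 7000 genes and at most 21% mitochondrial UMIs were kept. Members were left out of the 5000 variable genes. Harmony correction written in numpy 2.4.6, 23 components, 20 neighbours and Louvain clustering at resolution 0.4 (igraph 0.11.9) gave the clusters, named from marker lists. Because hepatocyte mRNA was high in every cluster, the naming thresholds were set after the counts were seen: a hepatocyte cluster had at least 3 of 8 markers 1.2-fold above the clusters of other classes, or 3 pericentral markers raised. Clusters of low depth and mixed clusters were left out, and nuclei of other classes with at least 50% of the hepatocyte level of 4 nuclear genes were set aside as likely doublets.

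UMIs were summed per library and class and scaled to CPM over mouse genes. Ratios are log2 with a pseudocount of 1 CPM, so they understate the change of low genes. Genes entered a comparison with a mean of at least 5 CPM over the libraries or bins compared and 50 UMIs in sum. With 1 library a group no test was run. Intervals are 95% exact Poisson, conditional or binomial (scipy 1.17.1). UMIs remove PCR copies, but the intervals cover counting error only. Summed hepatocyte UMIs were 18824262 to 54970695 per library. Coordinates are from GENCODE M21 and promoters from RefSeq. The calculation was tested on simulated data. A further check gene for position is not reported here.

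The text names members past 2-fold in a comparison (up to 20 in each direction), the 3 members of each family with most UMIs, members above background in another class and pathway genes past 2-fold. Gene names outside that rule, and the limit for gradients that differ by diet, were chosen after the values were seen. The members and lists were chosen with earlier results of these data known. Alternatives were TMM scaling, other pseudocounts, filters, position scores and class definitions, and leaving out each library.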

Additional observations from a re-analysis of the deposited data

Results flagged for a closer look

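For 4 members the gradient between the pericentral and the periportal bin pointed one way in both CD libraries and the other way in both LPD libraries. The difference, mean log2 ratio on LPD minus that on CD, was 1.99 for Gstp1, 0.83 for Gsto1, -0.80 for Gstp2 and -0.59 for Gstp3, and it was not tested, since 2 libraries stand for each diet. Of all genes, 14.9% changed sign in this way. The counting interval of the ratio included 0 for Gstp2 in CD control and for Gstp3 in CD control, CD oncogene and LPD control. Gsto1 was between -0.53 and -0.08 on CD and between 0.35 and 0.71 on LPD. Gstp1 kept a difference of at least 1 between the diets in every alternative run for position with 4 libraries, and the mitochondrial share of UMIs ran along the lobule in the same diet-dependent direction.

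The label comparison pointed opposite ways on the 2 diets, past 2-fold on each, for Gstm1 and Gstm3. The log2 ratio of oncogene over control label on LPD minus that on CD was 2.21 for Gstm1 and 3.34 for Gstm3, which was not tested with 1 library a group. The transgene UMIs go against the labels on CD, so the direction there is in doubt.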

How the results depend on the processing

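No paired analysis was possible because each group holds 1 library and no replicate number links samples. Across the alternatives, 67 counts of members stayed within 1.5 times the count reported and 17 did not. Gene by gene, only members past 2-fold in a comparison were rerun for it, with the Gstp1 and Gsta3 gradients. None of these changed direction except Sult5a1, whose log2 ratio in nuclei with a transgene UMI became 0.39 within the pericentral bin. The other results named for single members were not rerun. With a pseudocount of 5 CPM, 1 member was past 2-fold periportally and 3 were higher in nuclei with a transgene UMI. Within the pericentral bin, 0 members were higher and 0 lower in those nuclei. Members lower in CD oncogene than in CD control numbered 2 under TMM scaling, 1 with equal weight of common position bins and 1 without the Glul and Meg3 cluster, where the main count was 4. With no CPM minimum, 5 members were higher on LPD, since low genes then entered. In other cell classes, 2 members (Ugt2b34 and Ugt2b35, in cholangiocyte nuclei) passed with classes from each nucleus' own markers, 1 with the hepatocyte level itself as the limit and 4 with the nuclear panel. The genes of that panel had also been used to set nuclei aside, which lowered its background. Leaving out each library in turn gave 3 to 5 members past 2-fold pericentrally and 2 in each case periportally, 3 to 9 higher on LPD and 3 to 5 lower. The 9 came without CD control, and without LPD oncogene there were 5 pericentral members, 5 higher on LPD and 4 lower. Without CD oncogene 5 were lower on LPD, and without LPD control 4 were. Fewer libraries make the requirement easier to meet. TMM scaling moved the median over all genes on LPD from 0.29 to 0.08 in the pair LPD control over CD oncogene. The LPD libraries' depth limits members under 5 CPM.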
